A study of Mus musculus with 12 samples.

Results

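The 9 STAT and SOCS genes Stat2, Stat3, Stat5a, Stat5b, Stat6, Socs1, Socs2, Socs3 and Cish were followed in RNA-seq counts of 12 libraries from cultured mouse bone marrow cells. The genes were chosen as a named list of family members, matched by symbol to the Ensembl gene identifiers, and all 9 were found among the 41388 genes counted. There were 4 groups of 3 libraries, all from the strain C57BL/6. KO_OC and KO_BMM came from mice positive for LysM Cre, a recombinase driven by the Lyz2 locus of macrophages and granulocytes, which removes the floxed part of Asxl2, a Polycomb-group chromatin regulator. The groups flox_OC and flox_BMM came from mice with floxed Asxl2 and no Cre stated. After 5 days in alpha MEM with 10% FBS, cells were replated for 2 days in 2% M-CSF (BMM, bone marrow macrophages) or in 2% M-CSF with RANKL at 50 ng/ml (OC, osteoclast cultures). M-CSF maintains macrophages, and RANKL is the cytokine that drives their fusion into bone-resorbing osteoclasts. No group carried LysM Cre with intact Asxl2, so effects of Cre or of the altered Lyz2 locus cannot be told apart from the loss of Asxl2. The labels give no age and do not state if replicate libraries are separate animals, cultures or preparations. The p-values therefore reflect the spread among replicate libraries, which may be technical.

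Cytokines bind receptors that carry JAK kinases, and the JAKs phosphorylate STAT proteins, which pair up, enter the nucleus and bind DNA. STAT2 works with IRF9 downstream of type I interferons, STAT3 downstream of the IL-6 and IL-10 families, STAT5A and STAT5B downstream of GM-CSF, IL-3 and growth hormone, and STAT6 downstream of IL-4 and IL-13. SOCS proteins and CIS, the product of Cish, are induced by STATs and close the loop. SOCS1 and SOCS3 inhibit the JAKs themselves, while SOCS2 acts at the growth hormone receptor and CIS at receptors that use STAT5. In osteoclast precursors interferons and IL-4 are known to oppose RANKL, and SOCS1 and SOCS3 are known to blunt such signals.

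Libraries held 18489873 to 21667237 counts. Levels are CPM, counts divided by the TMM-scaled library total. A library with 0 counts of a gene allows up to 3, which equalled 0.138 to 0.162 CPM. Asxl2 itself lay between 12.7 and 15.1 CPM in KO_OC, against 71.1 to 75.6 CPM in flox_OC. It lay between 14.9 and 15.4 CPM in KO_BMM, against 89.8 to 95.6 CPM in flox_BMM. The KO libraries were thus below the flox libraries in both cultures (the floxed exons are not stated, and every exon was counted). The first principal component separated OC from BMM libraries and held 71.3% of the variance, and the second separated the genotypes and held 14.6%. The sum of 7 macrophage markers, mostly Lyz2, was 16239 to 16473 CPM in KO_OC and 15315 to 15724 CPM in flox_OC. In M-CSF alone it was 27729.9 to 28477 CPM in KO_BMM and 31285 to 32330.3 CPM in flox_BMM. Lyz2, the locus that drives Cre, averaged 11674 CPM in KO_OC and 10631 CPM in flox_OC. The sum of 10 osteoclast markers was 380 to 397 CPM in KO_OC and 744 to 765 CPM in flox_OC. In KO_BMM that sum was 206 to 210.1 CPM, and in flox_BMM it was 234 to 243 CPM. Nfatc1, the marker with the highest mean over the libraries, averaged 198 CPM in KO_OC and 350.3 CPM in flox_OC. In M-CSF alone Nfatc1 averaged 116 CPM in KO_BMM and 99.3 CPM in flox_BMM, against the direction of the sum. Calcr, the calcitonin receptor that marks mature osteoclasts, was at 0 counts in KO_OC, KO_BMM and flox_BMM. It had counts in flox_OC, but its level there is not given here, so no difference in mature osteoclasts is read from it.

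The members sit in a few places of the genome (GRCm38). Stat5b (ENSMUSG00000020919, chr11:100780731-100850724, minus strand), Stat5a (ENSMUSG00000004043, chr11:100859351-100885169, plus strand) and Stat3 (ENSMUSG00000004040, chr11:100885098-100939540, minus strand) are neighbours on chromosome 11. Stat5b and Stat5a are 8.63 kb apart, and the ends of Stat5a and Stat3 overlap by 72 bases on opposite strands. Socs3 (ENSMUSG00000053113, chr11:117966079-117970047, minus strand) lies on the same chromosome. Chromosome 10 holds Socs2 (ENSMUSG00000020027, chr10:95385362-95417180, minus strand), Stat6 (ENSMUSG00000002147, chr10:127642986-127660957, plus strand) and Stat2 (ENSMUSG00000040033, chr10:128270576-128292849, plus strand). Socs1 (ENSMUSG00000038037, chr16:10783808-10785536, minus strand) and Cish (ENSMUSG00000032578, chr9:107296026-107302784, plus strand) stand alone. The counting ignored strand, so reads in overlapping exons cannot be assigned; this concerned 0.8% of the exonic bases of Stat3, 1.0% of Stat5a, 0.9% of Stat6 and 11.5% of Cish. Stat5a and Stat5b are close copies: 608 windows of 50 bases occur in transcripts of both, which is 8.21% of the windows of Stat5a and 11% of those of Stat5b.

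Because Socs3 and Socs1 were the members that RANKL raised, their promoter windows are shown with that of Cish, a SOCS family gene that was barely detected. Windows run from 250 bases before to 50 bases after the RefSeq start (GRCm38.p6, given 5′ to 3′ on the gene's strand), and RefSeq windows were matched for 8 of the 9 members. Capitals mark TTCNNNGAA, the palindrome that STAT dimers are known to bind, in Socs3 and Cish, and GAAANNGAAA, the element known to bind interferon-activated complexes that contain STAT2, in Socs1. Both strands were searched, and the second element was added after the windows had been read.
Socs3 chr11:117969317-117969616 minus strand: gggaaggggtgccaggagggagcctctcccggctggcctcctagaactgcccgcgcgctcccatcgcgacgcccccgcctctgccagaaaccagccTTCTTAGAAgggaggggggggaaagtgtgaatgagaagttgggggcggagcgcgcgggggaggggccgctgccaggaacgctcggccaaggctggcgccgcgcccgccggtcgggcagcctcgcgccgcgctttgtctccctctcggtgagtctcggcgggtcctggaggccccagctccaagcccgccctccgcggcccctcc
Socs1 chr16:10785487-10785786 minus strand: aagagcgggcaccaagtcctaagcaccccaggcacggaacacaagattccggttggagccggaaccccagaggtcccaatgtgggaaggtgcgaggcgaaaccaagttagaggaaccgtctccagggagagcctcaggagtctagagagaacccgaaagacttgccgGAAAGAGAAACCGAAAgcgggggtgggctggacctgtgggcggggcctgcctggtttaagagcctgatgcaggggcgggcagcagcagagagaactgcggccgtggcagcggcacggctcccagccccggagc
Cish chr9:107296409-107296708 plus strand: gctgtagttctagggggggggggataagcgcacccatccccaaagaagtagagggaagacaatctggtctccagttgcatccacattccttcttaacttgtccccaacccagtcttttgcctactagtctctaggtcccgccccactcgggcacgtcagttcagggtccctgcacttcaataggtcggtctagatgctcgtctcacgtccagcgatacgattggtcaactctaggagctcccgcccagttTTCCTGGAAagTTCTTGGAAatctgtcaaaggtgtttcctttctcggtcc
The Socs3 window holds TTCTTAGAA 154 bases upstream of the RefSeq start. The Socs3 and Cish windows lie wholly inside the Ensembl gene spans given above. Upstream of the RefSeq start is therefore not upstream of every annotated start of these genes. The Socs1 window holds GAAAGAGAAA and GAAACCGAAA, which overlap, at 83 and 77 bases upstream. In Cish, TTCCTGGAA begins at the start itself and TTCTTGGAA begins 11 bases after it. The Stat2 window holds TTTCAGTTTC, the second element on the other strand, 222 bases upstream, and TTCCCTAGAA, in which TTC and GAA are 4 bases apart instead of 3, 210 bases upstream. No match to any of these elements was found in the windows of Stat3, Stat5a, Stat5b and Stat6. Among all 32851 windows, 8.3% held TTCNNNGAA, 6.95% held the form with 4 bases between and 3.44% held GAAANNGAAA, so a match describes a sequence and does not identify a site in use.

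Of the 9 members, 7 had enough counts to be tested, and Socs2 and Cish did not. Socs3 stood at 10.7, 9.51 and 9.44 CPM in KO_OC, against 38.1, 38.2 and 40.9 CPM in flox_OC. In M-CSF alone it stood at 2.06, 2.31 and 2.52 CPM in KO_BMM, against 3.86, 3.81 and 4.71 CPM in flox_BMM. The 4 groups did not overlap, and the order was flox_OC, KO_OC, flox_BMM and KO_BMM. Socs1 stood at 2.92, 2.82 and 3.06 CPM in KO_OC, against 4.74, 4.84 and 5.41 CPM in flox_OC. In M-CSF alone Socs1 was at 1.03, 1.16 and 0.97 CPM in KO_BMM, against 1.19, 1.13 and 0.786 CPM in flox_BMM. The OC groups were separate and both above the BMM groups, while the BMM groups overlapped.

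Stat2 ranged from 69.6 to 70.2 CPM in KO_OC, against 65.3 to 69.9 CPM in flox_OC, and these groups overlapped. In M-CSF alone its libraries read 112, 112 and 111 CPM in KO_BMM, against 121, 134 and 134 CPM in flox_BMM. Stat2 was thus highest in flox_BMM, lower in KO_BMM and lowest in both OC groups. Stat3 read 76.6, 77 and 75.1 CPM in KO_OC, against 76.9, 78 and 73.7 CPM in flox_OC. In M-CSF alone Stat3 read 117, 116 and 111 CPM in KO_BMM, against 117, 123 and 121 CPM in flox_BMM. The OC groups overlapped, and the BMM groups lay side by side without overlap.

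Stat5a read 30.2, 27.4 and 32.5 CPM in KO_OC, against 24.3, 23.4 and 22.8 CPM in flox_OC. In M-CSF alone it read 32.8, 33.1 and 29.7 CPM in KO_BMM, against 27, 27.7 and 23.8 CPM in flox_BMM. For this gene the KO libraries were above the flox libraries of the same culture, and OC and BMM of one genotype overlapped. Stat5b read 44.1, 43 and 42.2 CPM in KO_OC, against 38.4, 37.5 and 37 CPM in flox_OC. In M-CSF alone Stat5b read 70.5, 70.7 and 73.8 CPM in KO_BMM, against 62.2, 63.2 and 65.5 CPM in flox_BMM. No 2 groups overlapped for Stat5b. Stat6 was the most abundant member, with 344, 342 and 349 CPM in KO_OC, against 305, 306 and 301 CPM in flox_OC. In M-CSF alone Stat6 read 373, 364 and 369 CPM in KO_BMM, against 361, 370 and 358 CPM in flox_BMM, and these groups overlapped.

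**Figure D1:**
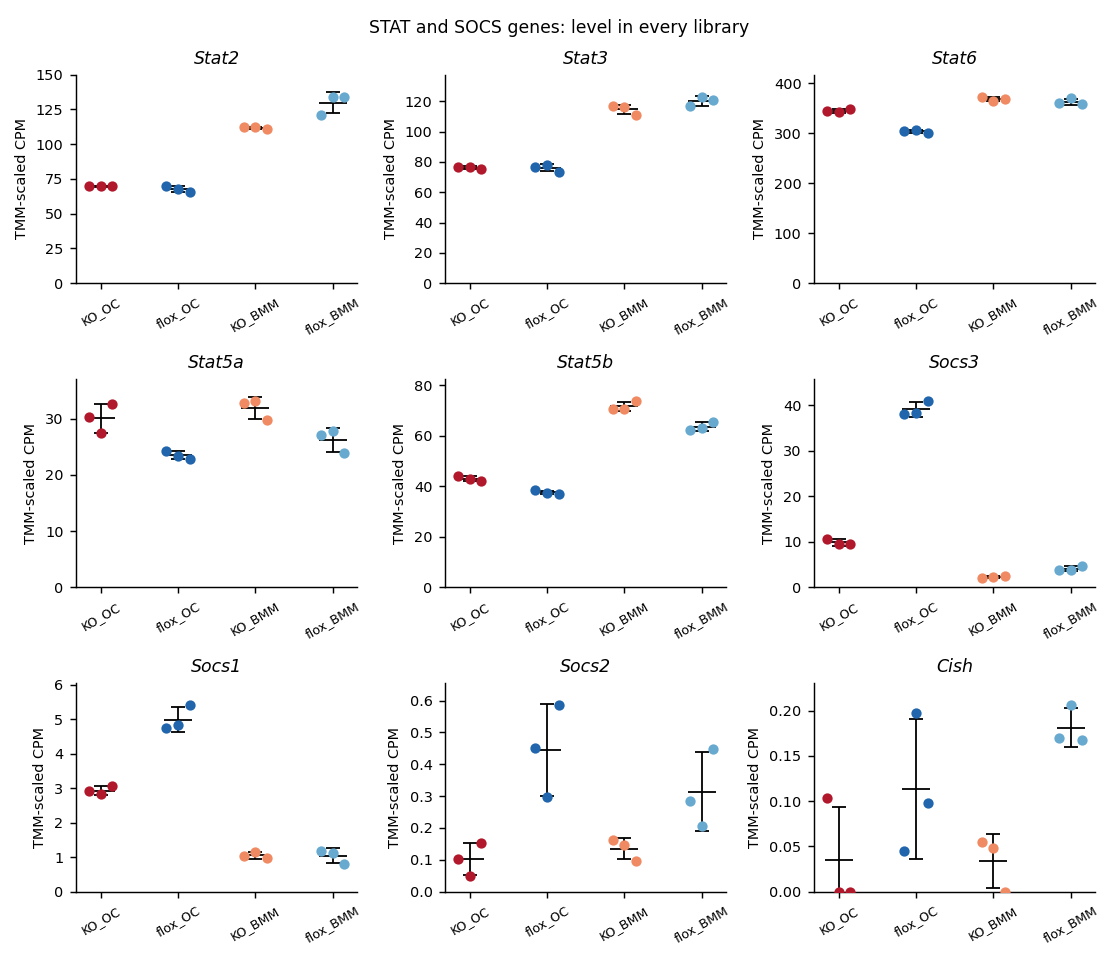
Level of each STAT and SOCS gene in TMM-scaled CPM (vertical axis from 0, its own scale per gene) in the 4 groups; points are the 3 libraries, the wide bar is the mean and the whiskers 1 SD. Socs3 and Socs1 are highest in flox_OC, whereas Stat2, Stat3 and Stat5b are lower in both OC groups than in the BMM groups of the same genotype; Socs2 and Cish stay below 1 CPM.

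Compared per kilobase of exon, the order of the genes changed with the culture. The length used was that of all annotated exons of a gene, 9527 bases for Stat3 and 2891 for Socs3. Transcripts in use may be shorter, so the order between genes holds only for this length. In flox_OC, Stat6 averaged 69 CPM per kb, Stat2 15.4, Socs3 13.5, Stat3 8, Stat5b 6.79, Socs1 4.1 and Stat5a 3.3 CPM per kb, with no overlap between neighbours. In KO_OC, Stat6 averaged 78.4 CPM per kb, Stat2 15.9, Stat3 8, Stat5b 7.79, Stat5a 4.21, Socs3 3.41 and Socs1 2.41 CPM per kb, and only Stat3 and Stat5b overlapped among these 7. By this length, Socs3 was above Stat3, Stat5b and Stat5a in flox_OC and below them in KO_OC. In KO_BMM, the order was Stat6 (83.8 CPM per kb), Stat2 (25.4), Stat5b (12.9), Stat3 (12), Stat5a (4.47), Socs1 (0.863) and Socs3 (0.795), the last pair overlapping. In flox_BMM, it was Stat6 (82.5 CPM per kb), Stat2 (29.4), Stat3 (12.6), Stat5b (11.5), Stat5a (3.67), Socs3 (1.43) and Socs1 (0.85). Socs2 and Cish were last in every group, at no more than 0.0466 CPM per kb on average. Against all tested genes, the mean level of Stat6 per kb lay at percentile 95.2 in KO_OC and 94.2 in flox_OC. Socs3 lay at percentile 36.3 in KO_OC and 67.1 in flox_OC.

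The first comparison set cultures with RANKL against M-CSF alone within each genotype. RANKL raised the inhibitor genes Socs3 and Socs1 and lowered most of the STAT genes. In KO cells, 6 of the 7 tested members changed (2 rose and 4 fell; edgeR adjusted p under 0.05), against 70.5% of all 13030 tested genes (35.5% higher and 35% lower). In flox cells all 7 changed (2 rose and 5 fell), against 74.8% of all tested genes (37% higher and 37.8% lower), so the number called is close to the background in both genotypes. With a change over 1.5-fold required as well, 5 members were called in KO cells, against 28.2% of all genes, and 5 in flox cells, against 34.9%. The median log2 change over the 7 tested members was -0.10 in KO cells, where it was 0.002 over all tested genes. It was -0.26 in flox cells, where all tested genes had a median of -0.004.

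Socs3 rose 4.26-fold in KO cells (log2 change 2.09 with SE 0.12, edgeR adjusted p = 1.09e-20). In flox cells it rose 9.46-fold (log2 change 3.24 with SE 0.082, edgeR adjusted p = 1.44e-35), which placed it 90th from the top of the 13030 genes. Socs1 rose 2.77-fold in KO cells (log2 change 1.47 with SE 0.19, edgeR adjusted p = 3.29e-09) and 4.78-fold in flox cells (2.26, SE 0.17, edgeR adjusted p = 2.89e-16). Its BMM levels rest on 63 counts summed over KO_BMM and 57 over flox_BMM, so the intervals are wide: 1.08 to 1.86 in KO cells and 1.91 to 2.61 in flox cells on the log2 scale.

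Among the STAT genes, Stat2 fell 1.6-fold in KO cells (log2 change -0.68 with SE 0.038, edgeR adjusted p = 3.31e-21) and 1.91-fold in flox cells (-0.93, SE 0.038, edgeR adjusted p = 4.51e-27). Stat3 fell 1.5-fold in KO cells (log2 change -0.59 with SE 0.036) and 1.58-fold in flox cells (-0.66, SE 0.035), with edgeR adjusted p of 4.38e-20 and 4.36e-22. Stat5b fell 1.66-fold in KO cells (log2 change -0.73 with SE 0.041) and 1.69-fold in flox cells (-0.76, SE 0.043), with edgeR adjusted p of 2.39e-21 and 2.76e-21. Stat5a, its neighbour and close copy, moved far less: -0.09 on the log2 scale in KO cells (SE 0.06, edgeR adjusted p = 0.205) and -0.16 in flox cells (SE 0.065, edgeR adjusted p = 0.0297). The flox call for Stat5a is not firm. The OC and BMM libraries overlapped, DESeq2 gave an adjusted p of 0.114, and the edgeR adjusted p was 0.0908, 0.186, 0.0641 and 0.0901 without flox_BMM library 1, flox_BMM library 2, flox_OC library 2 and flox_OC library 3. In KO cells the Stat5a change passed without KO_OC library 3 (-0.15, edgeR adjusted p = 0.0428).

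Stat6 fell slightly, by 0.10 on the log2 scale in KO cells (SE 0.027, edgeR adjusted p = 0.00137) and by 0.26 in flox cells (SE 0.027, edgeR adjusted p = 5.99e-12). Scaling by library size alone moved the median of all genes up by 0.136 in KO cells and 0.165 in flox cells. Under it the Stat6 change in KO cells (0.04, edgeR adjusted p = 0.178) and the Stat5a change in flox cells (0.01, edgeR adjusted p = 0.856) turned positive without passing. All other called RANKL changes of the members kept their sign under it.

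The second comparison set KO against flox in the OC cultures. KO cells had less Socs3 and Socs1 and slightly more Stat5a, Stat5b and Stat6, while no change passed for Stat2 and Stat3. Of the 7 tested members 5 changed (3 higher and 2 lower in KO_OC), against 41.3% of all tested genes (21.4% higher and 19.9% lower). Over 1.5-fold, 2 members were called, Socs3 and Socs1, against 8.75% of all genes. The median over the 7 was 0.04 on the log2 scale, where it was 0.006 over all tested genes. Socs3 was 3.96-fold lower in KO_OC (log2 change -1.98 with SE 0.066, edgeR adjusted p = 4.6e-29). It ranked 61st from the bottom of the 13030 genes, and 77 genes (0.591%) had a larger change in either direction. Socs1 was 1.7-fold lower in KO_OC (log2 change -0.77 with SE 0.13, edgeR adjusted p = 5.51e-06).

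The STAT changes in OC were small against these. Stat5a was 1.28-fold higher in KO_OC (log2 change 0.35 with SE 0.062, edgeR adjusted p = 8.34e-06). Stat5b was 1.15-fold higher (0.20, SE 0.045, edgeR adjusted p = 0.000353), and Stat6 was 1.14-fold higher (0.18, SE 0.027, edgeR adjusted p = 1.85e-07). The 95% interval of the log2 change was -0.04 to 0.13 for Stat2 (edgeR adjusted p = 0.417) and -0.07 to 0.07 for Stat3 (edgeR adjusted p = 0.993).

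The third comparison set KO against flox in M-CSF alone. Socs3 and Stat2 were lower in KO_BMM, Stat5a and Stat5b were slightly higher, and no change passed for Socs1, Stat3 and Stat6. Of the 7 tested members 4 changed (2 higher and 2 lower), against 39.9% of all tested genes (19.3% higher and 20.6% lower). Over 1.5-fold, Socs3 was the 1 member called, against 9.02% of all genes. The median over the 7 was 0.02 on the log2 scale, where it was 0.001 over all tested genes. Socs3 was 1.78-fold lower in KO_BMM (log2 change -0.83 with SE 0.15, edgeR adjusted p = 1.14e-05), resting on 138 counts summed over KO_BMM and 226 over flox_BMM. Stat2 was 1.16-fold lower (log2 change -0.21 with SE 0.036, edgeR adjusted p = 2.65e-06).

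Stat5a was 1.22-fold higher in KO_BMM (log2 change 0.28 with SE 0.062, edgeR adjusted p = 0.00023), and Stat5b was 1.13-fold higher (0.17, SE 0.039, edgeR adjusted p = 0.00032). These genes were therefore higher in KO cells in both cultures. For Stat3 the KO_BMM libraries lay below the flox_BMM libraries, a separation that 46.6% of all tested genes show in this comparison, but the change did not pass (-0.07, edgeR adjusted p = 0.109). The interval for Socs1 ran from -0.49 to 0.53 on the log2 scale (edgeR adjusted p = 0.963), at 63 counts against 57. The OC estimate of -0.77 lies outside it, but the OC interval of -1.03 to -0.5 nearly meets it. Whether the genotype difference of Socs1 differs between the cultures rests on the test of the difference, given below, which is not firm.

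The last comparison asked whether the response to RANKL differed between the genotypes, as the RANKL effect in KO minus that in flox cells. Of the 7 tested members 4 differed (2 higher and 2 lower), against 21.9% of all tested genes (12.3% higher and 9.54% lower). Over 1.5-fold, 2 members were called, Socs3 and Socs1, against 3.34% of all genes. The rise of Socs3 was smaller in KO cells by 1.15 on the log2 scale (difference -1.15, SE 0.17, edgeR adjusted p = 1.1e-06), which ranked it 63rd from the bottom of the 13030 genes. The rise of Socs1 was smaller by 0.78 (difference -0.78, SE 0.29, edgeR adjusted p = 0.0419). That Socs1 call is not firm: DESeq2 gave an adjusted p of 0.128, and the edgeR adjusted p was between 0.0541 and 0.144 when KO_BMM library 1, 2 or 3, flox_BMM library 3, KO_OC library 1 or 2, or flox_OC library 3 was left out. The fall of Stat2 was smaller in KO cells (difference 0.26, SE 0.054, edgeR adjusted p = 0.000269), as was that of Stat6 (0.16, SE 0.038, edgeR adjusted p = 0.00119). For Stat3, Stat5a and Stat5b the difference was 0.07, 0.07 and 0.02, with 95% intervals of -0.03 to 0.17, -0.11 to 0.25 and -0.10 to 0.14. The 4 comparisons between groups share libraries, so their results for a gene are not independent of each other.

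**Figure D2:**
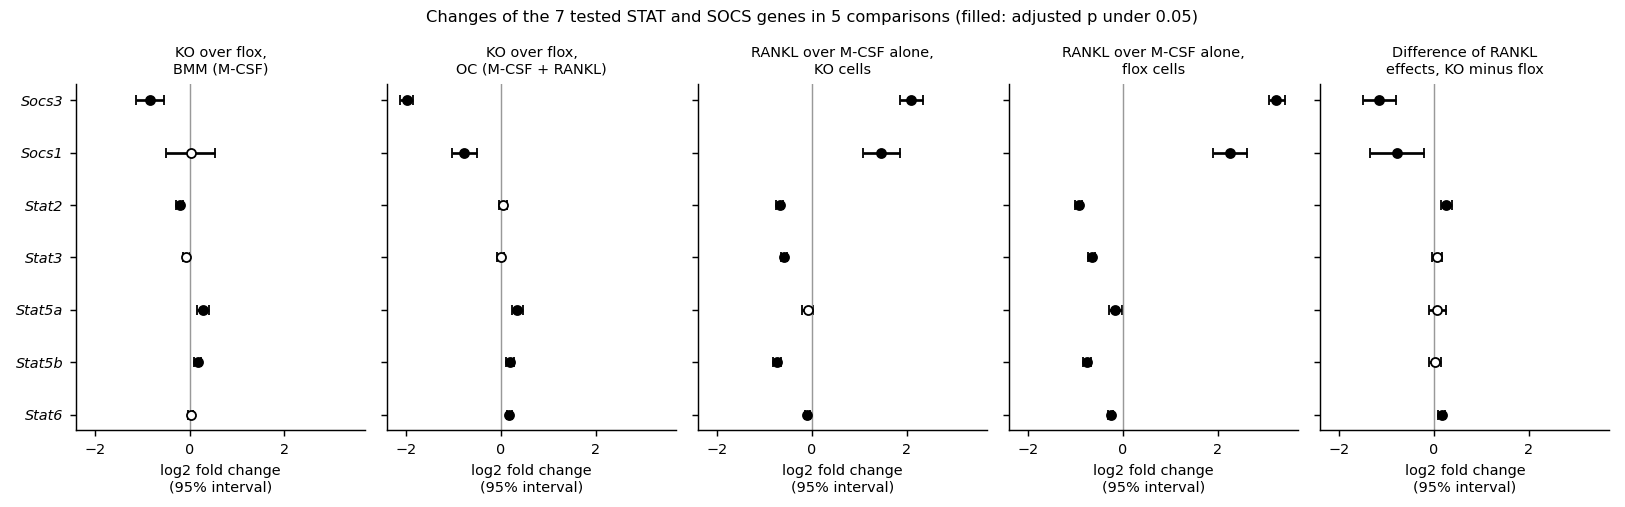
Log2 fold change (horizontal axis, with its 95% interval) of the 7 tested members in the 4 comparisons between groups and in the difference of RANKL effects; filled points have an edgeR adjusted p under 0.05. Socs3 stands furthest from 0 in the comparisons shown, at -1.98 for KO over flox in OC and 3.24 for RANKL in flox cells, while the STAT genes stay within 1 log2 unit; the small RANKL changes of Stat6 in KO cells and Stat5a in flox cells turn positive when libraries are scaled by size alone.

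Since Stat5a and Stat5b share sequence, their counts were also summed. Reads that match both equally may have been left uncounted, which the sum cannot recover. The sum was higher in KO cells in OC (0.26, SE 0.038, edgeR adjusted p = 1.76e-07) and in BMM (0.21, SE 0.035, edgeR adjusted p = 3.9e-06). With RANKL it fell by 0.50 in KO cells (edgeR adjusted p = 1.98e-17) and fell by 0.55 in flox cells (edgeR adjusted p = 1.99e-18). The difference of the RANKL effects on the sum was 0.05 (edgeR adjusted p = 0.516).

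Socs2 and Cish were close to the limit of detection. Socs2 had 2, 1 and 3 counts in KO_OC, against 10, 6 and 12 counts in flox_OC. It had 3, 3 and 2 counts in KO_BMM, against 5, 4 and 8 counts in flox_BMM. The KO libraries were below the flox libraries in both cultures. The ratio of library-scaled summed counts, KO over flox, was 0.226 in OC (95% exact interval 0.0765 to 0.556) and 0.432 in BMM (0.161 to 1.06), intervals that cover counting error only. Tested without the filter on low counts, Socs2 gave a log2 change of -2.07 in OC (edgeR adjusted p = 0.0027) and -1.17 in BMM (edgeR adjusted p = 0.195).

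Cish had 2, 0 and 0 counts in KO_OC, against 1, 4 and 2 counts in flox_OC. It had 1, 1 and 0 counts in KO_BMM, against 3, 4 and 3 counts in flox_BMM. The BMM groups did not overlap and the OC groups did. The ratio of summed counts, KO over flox, was 0.301 in OC (95% exact interval 0.0305 to 1.58) and 0.183 in BMM (0.0195 to 0.861). Without the filter the change of Cish did not pass in OC (edgeR adjusted p = 0.385) or in BMM (edgeR adjusted p = 0.0934). For RANKL over M-CSF alone the ratio of Cish was 1 in KO cells (0.0727 to 13.8) and 0.61 in flox cells (0.197 to 1.78), and that of Socs2 was 0.752 (0.215 to 2.47) and 1.44 (0.759 to 2.8), so no RANKL effect on either gene was detectable at this depth. Antisense genes share 11.5% of the exonic bases of Cish, and their reads cannot be separated from its own.

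Over the 12 libraries the members fell into an opposing pattern. The log2 CPM of Socs3 and Socs1 correlated at Pearson r = 0.94, and Socs3 correlated at -0.98 with Stat6, -0.95 with Stat5b, -0.85 with Stat3, -0.83 with Stat2 and -0.69 with Stat5a. Stat2 and Stat3 correlated at 0.99, and Stat5a with Stat2 at 0.24. These values describe 12 libraries in 4 groups, and libraries of a group lie close together.

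The genes whose log2 CPM was most like that of Socs3 over the 12 libraries, out of 11487 named genes, were Gpc1 (r = 0.996), Fosl2 (0.994) and Smox (0.993). Gpc1 encodes a cell-surface heparan sulphate proteoglycan, Fosl2 an AP-1 transcription factor and Smox spermine oxidase. Gpc1 averaged 43.5 CPM in KO_OC and 96.4 CPM in flox_OC, with 15.4 CPM in KO_BMM and 22.6 CPM in flox_BMM. Smox averaged 79.5 CPM in KO_OC and 175 CPM in flox_OC, with 35.9 CPM in KO_BMM and 55.1 CPM in flox_BMM. Each of them was highest in flox_OC and lowest in KO_BMM, as Socs3 was.

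**Figure D3:**
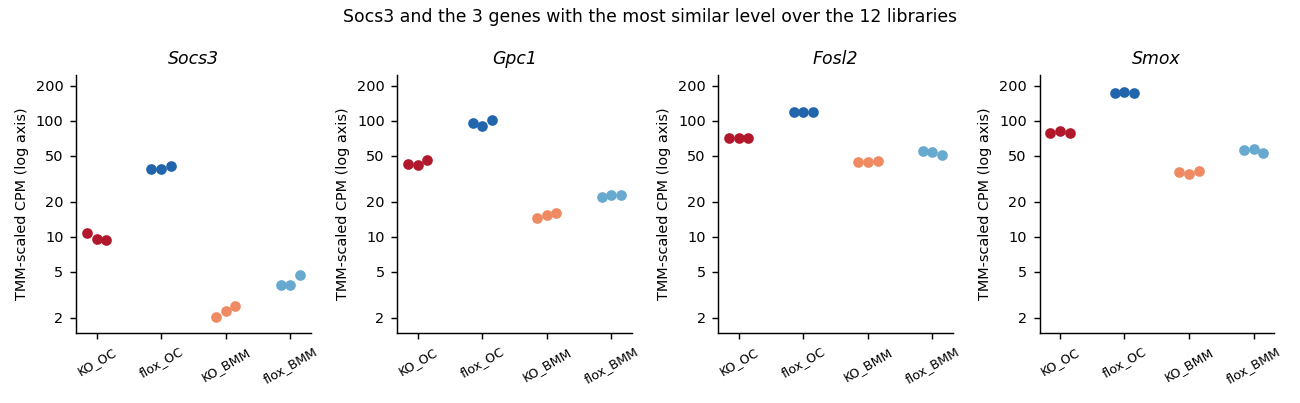
Level of Socs3 and of Gpc1, Fosl2 and Smox in each library (TMM-scaled CPM, logarithmic axis shared by the 4 panels); points are the 3 libraries of each group. All 4 genes have flox_OC at the top, then KO_OC, flox_BMM and KO_BMM, and Socs3 spans the widest range, with means of 9.87 CPM in KO_OC, 39.1 CPM in flox_OC, 2.3 CPM in KO_BMM and 4.13 CPM in flox_BMM.

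For Socs1 the most similar genes were Sept11, Dctpp1 and Cdc34 (r = 0.994 each), a septin, a dCTP pyrophosphatase and a ubiquitin-conjugating enzyme. Cdc34 averaged 95 CPM in KO_OC and 109 CPM in flox_OC, with 69.8 CPM in KO_BMM and 67.5 CPM in flox_BMM. For Stat2 they were Unc93b1 (0.997), Tent5a (0.996) and Hfe (0.996), where Unc93b1 carries nucleic-acid-sensing Toll-like receptors to endosomes. For Stat3 they were Ints6l, Pygl and Cd163 (0.997 each); Cd163, the macrophage haemoglobin scavenger receptor, averaged 1.17 CPM in KO_OC and 1.11 CPM in flox_OC, with 23.7 CPM in KO_BMM and 29.4 CPM in flox_BMM.

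For Stat5b the most similar were Scpep1, Wdr11 and Slc9a3r1 (0.998 each). For Stat6 they were Sirpb1c (0.988), Zadh2 (0.985) and Shisa9 (0.984). Stat5a had the loosest matches, with Usp22 (0.947), a histone deubiquitinase, Ly6c2 (0.939) and Ogdh (0.937), a subunit of the 2-oxoglutarate dehydrogenase complex. Ogdh averaged 413 CPM in KO_OC and 352 CPM in flox_OC, with 447 CPM in KO_BMM and 378 CPM in flox_BMM, higher in KO cells in both cultures as Stat5a was.

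The rest of the pathway was read from lists of ligands, receptors, kinases, modifiers and target genes. Some genes stand in more than 1 list, and the lists were chosen with earlier results of these data known. Each count of called genes is to be read against all tested genes, of which 21.4% were higher and 19.9% lower in KO_OC, and 19.3% higher and 20.6% lower in KO_BMM. With RANKL 35.5% of all tested genes rose and 35% fell in KO cells, and 37% rose and 37.8% fell in flox cells. The median log2 change over all tested genes lay between -0.004 and 0.006 in these 4 comparisons. Among the ligands, 6 of 14 were tested. In KO_OC 1 was higher and 2 lower, in KO_BMM 2 were higher and 2 lower, and with RANKL none rose while 3 fell in KO cells and 5 fell in flox cells. The median log2 change of the 6 was -0.01 in OC and 0.001 in BMM. Csf1, which encodes M-CSF itself, averaged 5 CPM in KO_OC and 13.4 CPM in flox_OC (log2 fold change -1.42, edgeR adjusted p = 9.95e-18). In M-CSF alone Csf1 averaged 5.82 CPM in KO_BMM and 18.9 CPM in flox_BMM (-1.69, edgeR adjusted p = 8.59e-22). Il10, the anti-inflammatory cytokine that signals through STAT3, averaged 0.503 CPM in KO_BMM and 2.05 CPM in flox_BMM (-2.01, edgeR adjusted p = 7.2e-08). Ebi3, a shared subunit of IL-27 and IL-35, averaged 27.3 CPM in KO_OC and 16.8 CPM in flox_OC (0.70, edgeR adjusted p = 4.97e-14).

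Of the 3 tested receptor genes of the STAT2 list, none changed with genotype in OC and 3 were lower in KO_BMM; all 3 fell with RANKL in KO and in flox cells. Ifnar1, a chain of the type I interferon receptor, averaged 377 CPM in KO_BMM and 453 CPM in flox_BMM (-0.26, edgeR adjusted p = 1.69e-11). Its change in OC was 0.01 (edgeR adjusted p = 0.874). Of the 9 tested receptors of the STAT3 list, 3 were higher and 2 lower in KO_OC, and 1 was higher and 5 lower in KO_BMM, with medians of -0.03 in OC and -0.18 in BMM. Il6st, the gp130 chain shared by the IL-6 family and the chain at which SOCS3 is known to dock, averaged 93.4 CPM in KO_OC and 127 CPM in flox_OC (-0.44, edgeR adjusted p = 2.45e-15). In M-CSF alone Il6st averaged 96.4 CPM in KO_BMM and 118 CPM in flox_BMM (-0.30, edgeR adjusted p = 7.82e-10). Il10ra, the ligand-binding IL-10 receptor chain, averaged 40.9 CPM in KO_OC and 30.4 CPM in flox_OC (0.43, edgeR adjusted p = 1.52e-09).

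With RANKL, 7 of the 9 STAT3-list receptors fell and 1 rose in KO cells, and 6 fell and 2 rose in flox cells, where 35% of all tested genes fell in KO cells and 37.8% in flox cells. The median of the 9 was -0.85 in KO cells and -0.97 in flox cells. Csf3r, the G-CSF receptor, fell by 2.10 on the log2 scale in KO cells (edgeR adjusted p = 2.88e-26) and fell by 2.67 in flox cells (edgeR adjusted p = 7.28e-29). Lifr, the LIF receptor, fell by 2.73 in KO cells (edgeR adjusted p = 4.78e-12) and fell by 3.32 in flox cells (edgeR adjusted p = 1.18e-14). These receptors fell in the comparison in which Stat3 fell.

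Of the 8 tested receptors of the STAT5 list, 1 was higher and 5 lower in KO_OC, and none was higher and 6 lower in KO_BMM, with medians of -0.44 in OC and -0.33 in BMM. The shared GM-CSF, IL-3 and IL-5 receptor chain Csf2rb averaged 175 CPM in KO_OC and 286 CPM in flox_OC (-0.71, edgeR adjusted p = 2.08e-25). Csf2rb2, the mouse IL-3-specific copy, averaged 123 CPM in KO_OC and 230.1 CPM in flox_OC (-0.90, edgeR adjusted p = 1.5e-26). Reads of these near-identical genes may be left uncounted or assigned to the wrong copy. Il7r averaged 41.1 CPM in KO_OC and 81.2 CPM in flox_OC (-0.98, edgeR adjusted p = 3.7e-23). In this list the members that fell in KO_OC stood beside higher Stat5a and Stat5b. With RANKL 3 rose and 4 fell in KO cells, and 4 rose and 4 fell in flox cells. Il2rg, the common gamma chain, rose by 2.18 in KO cells (edgeR adjusted p = 7.25e-43) and by 2.25 in flox cells (edgeR adjusted p = 2.3e-43).

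Of the 3 receptors of the STAT6 list, 2 were lower and none higher in KO_OC and likewise in KO_BMM, with medians of -0.25 and -0.37. Il4ra averaged 52.2 CPM in KO_OC and 62.2 CPM in flox_OC (-0.25, edgeR adjusted p = 1.75e-05), with 120 CPM in KO_BMM and 155 CPM in flox_BMM (-0.37, edgeR adjusted p = 6.51e-11). Il13ra1 averaged 2.87 CPM in KO_OC and 5.49 CPM in flox_OC (-0.93, edgeR adjusted p = 5.67e-08), with 2.95 CPM in KO_BMM and 11.4 CPM in flox_BMM (-1.95, edgeR adjusted p = 8.69e-20). With RANKL Il4ra fell by 1.20 in KO cells (edgeR adjusted p = 8.39e-27) and fell by 1.32 in flox cells (edgeR adjusted p = 3.08e-29).

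The 4 JAK kinases changed little with genotype. In KO_OC 2 were higher and none lower, in KO_BMM none was higher and 2 lower. With RANKL 3 fell and 1 rose in KO cells, and all 4 fell in flox cells. Their median was 0.13 in OC, -0.08 in BMM, and with RANKL -0.24 in KO cells and -0.40 in flox cells. Jak1, which serves most of these receptors, fell by 0.40 in KO cells (edgeR adjusted p = 1.52e-17) and fell by 0.49 in flox cells (edgeR adjusted p = 6.15e-21). Tyk2 averaged 101 CPM in KO_OC and 86.9 CPM in flox_OC (0.22, edgeR adjusted p = 1.21e-06). Its small fall with RANKL in KO cells (-0.12, edgeR adjusted p = 0.00167) turned to 0.01 when libraries were scaled by size alone.

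Among the other family members, Stat4 had too few counts and 4 SOCS genes were tested. Socs5 averaged 29.2 CPM in KO_BMM and 42 CPM in flox_BMM (-0.53, edgeR adjusted p = 5.47e-12). With RANKL it rose by 0.82 in KO cells (edgeR adjusted p = 3.77e-20) and by 0.17 in flox cells (edgeR adjusted p = 0.00103), a difference of 0.65 (edgeR adjusted p = 2.19e-10). Socs6 fell with RANKL by 1.17 in KO cells (edgeR adjusted p = 1.4e-24) and fell by 0.89 in flox cells (edgeR adjusted p = 1.6e-19). The RANKL rise of Socs3 and Socs1 was thus not shared by Socs6. For Socs5 the difference of the RANKL effects was positive and that for Socs3 negative (-1.15), while both were lower in KO_BMM than in flox_BMM.

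The 8 STAT partners and modifiers held no called gene in BMM, where 39.9% of all genes were called, and 3 higher and 1 lower in OC. Pias3, an inhibitor of STAT3 binding, averaged 31.5 CPM in KO_OC and 27.2 CPM in flox_OC (0.21, edgeR adjusted p = 0.00109). Of 9 phosphatases and adaptors tested, 5 were higher and 1 lower in KO_OC, and 3 were higher and 2 lower in KO_BMM. Sh2b3, the adaptor LNK that dampens JAK2, averaged 146 CPM in KO_OC and 127 CPM in flox_OC (0.20, edgeR adjusted p = 4.8e-07). With RANKL 4 of the 9 phosphatases and adaptors rose and 3 fell in KO cells, and 2 rose and 5 fell in flox cells. Ptpn1, a phosphatase of JAK2 and TYK2, fell by 1.15 in KO cells (edgeR adjusted p = 4.42e-35) and fell by 1.10 in flox cells (edgeR adjusted p = 1.9e-34). Ptpn2 rose by 0.67 in KO cells (edgeR adjusted p = 1.01e-14) and by 0.55 in flox cells (edgeR adjusted p = 5.52e-12). The list of SOCS box ubiquitin ligase genes, which also holds Cul2 and Rbx1, had 6 tested genes. Of these, 4 rose and none fell with RANKL in KO cells, and 5 rose and none fell in flox cells. Of all tested genes 35.5% rose in KO cells and 37% in flox cells, and the median of the 6 was 0.15 and 0.26 on the log2 scale. Rnf7 and Cul5 encode the RING and scaffold subunits of the ligase that the SOCS box recruits. They rose by 0.19 and 0.15 in KO cells (edgeR adjusted p = 0.00292 and 0.0023) and by 0.34 and 0.20 in flox cells (edgeR adjusted p = 6.86e-07 and 0.000112).

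Target genes were read by STAT. All 11 genes of the STAT2 list were tested; 5 were higher and 1 lower in KO_OC, and none was higher and 6 lower in KO_BMM. With RANKL 3 rose and 4 fell in KO cells, 3 rose and 7 fell in flox cells, and the RANKL effect was higher in KO cells for 7 and lower for none. Over all tested genes 12.3% were called in that direction. The median of that difference over the list was 0.43 on the log2 scale, where it was 0.011 over all tested genes. Mx1, an interferon-induced GTPase, averaged 5.81 CPM in KO_OC and 3.75 CPM in flox_OC (0.64, edgeR adjusted p = 0.000102). Its RANKL change was -0.85 in KO cells and -1.77 in flox cells, a difference of 0.92 (edgeR adjusted p = 1.78e-05). Ifit2, an RNA-binding interferon effector, changed by -0.57 in KO cells and -1.18 in flox cells, a difference of 0.62 (edgeR adjusted p = 0.000347). Stat2 itself had a smaller fall in KO cells too, by 0.26.

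Of the 12 genes of the STAT3 list, 2 were higher and 8 lower in KO_OC, and 1 was higher and 6 lower in KO_BMM. Of all tested genes 19.9% were lower in OC and 20.6% in BMM, and the median of the 12 was -0.20 in OC and -0.24 in BMM. Junb, an AP-1 gene, averaged 337 CPM in KO_OC and 464 CPM in flox_OC (-0.46, edgeR adjusted p = 1.06e-19), with 90.4 CPM in KO_BMM and 141 CPM in flox_BMM (-0.64, edgeR adjusted p = 7.87e-22). Fgl2, a fibrinogen-like protein, averaged 0.923 CPM in KO_OC and 2.12 CPM in flox_OC (-1.19, edgeR adjusted p = 1.96e-05). Tnfrsf1b, a TNF receptor, averaged 278 CPM in KO_OC and 225 CPM in flox_OC (0.31, edgeR adjusted p = 6.21e-13). With RANKL 7 rose and 4 fell in KO cells, and 6 rose and 6 fell in flox cells. Il1rn and Bcl3 rose by 1.56 and 1.41 in KO cells (edgeR adjusted p = 3.73e-29 and 5.16e-30), and by 1.92 and 1.38 in flox cells (edgeR adjusted p = 4.88e-32 and 1.27e-30). Socs3, another known STAT3 target, rose as well. Fgl2 went the other way, with -2.11 in KO cells and -2.64 in flox cells, as did Il4ra, with -1.20 and -1.32.

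Of the 12 genes of the STAT5 list, 2 were higher and 6 lower in KO_OC, and 1 was higher and 5 lower in KO_BMM, with medians of -0.08 in OC and -0.06 in BMM. Dusp5, a phosphatase of ERK, averaged 11.8 CPM in KO_OC and 29.2 CPM in flox_OC (-1.30, edgeR adjusted p = 3.31e-21). Bcl2l1, which encodes the survival protein BCL-XL, averaged 40.8 CPM in KO_OC and 29.7 CPM in flox_OC (0.46, edgeR adjusted p = 1.39e-11). Ccnd2, a D-type cyclin, averaged 1.01 CPM in KO_OC and 2.2 CPM in flox_OC (-1.12, edgeR adjusted p = 5.15e-05). With RANKL 3 rose and 7 fell in KO cells, and 3 rose and 8 fell in flox cells. Bcl2l1 fell by 2.05 in KO cells (edgeR adjusted p = 1.69e-41) and fell by 2.46 in flox cells (edgeR adjusted p = 6e-44). Dusp5 rose by 3.53 in KO cells and by 3.32 in flox cells.

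Of the 17 genes of the STAT6 list only 10 were tested; 2 were higher and 4 lower in KO_OC, and 2 were higher and 5 lower in KO_BMM, with medians of -0.13 in OC and -0.48 in BMM. Tgm2, a transglutaminase, averaged 169 CPM in KO_OC and 84.7 CPM in flox_OC (1.00, edgeR adjusted p = 6.33e-29), with 363 CPM in KO_BMM and 208 CPM in flox_BMM (0.81, edgeR adjusted p = 2.94e-27). Mrc1, the mannose receptor, averaged 91.8 CPM in KO_OC and 144 CPM in flox_OC (-0.65, edgeR adjusted p = 4.87e-18). With RANKL 4 of the 10 rose and 4 fell in KO cells, and 2 rose and 4 fell in flox cells. Mrc1 fell by 2.63 in KO cells (edgeR adjusted p = 2.42e-41) and fell by 2.19 in flox cells (edgeR adjusted p = 1.82e-39). Klf4 went the other way, with a rise of 1.56 in KO cells and 1.66 in flox cells, and Pparg rose in both as well. Within this list Tgm2 and Mrc1 moved in opposite directions by genotype, and 7 members, among them Retnla and Ccl24, had too few counts to be tested.

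**Figure D4:**
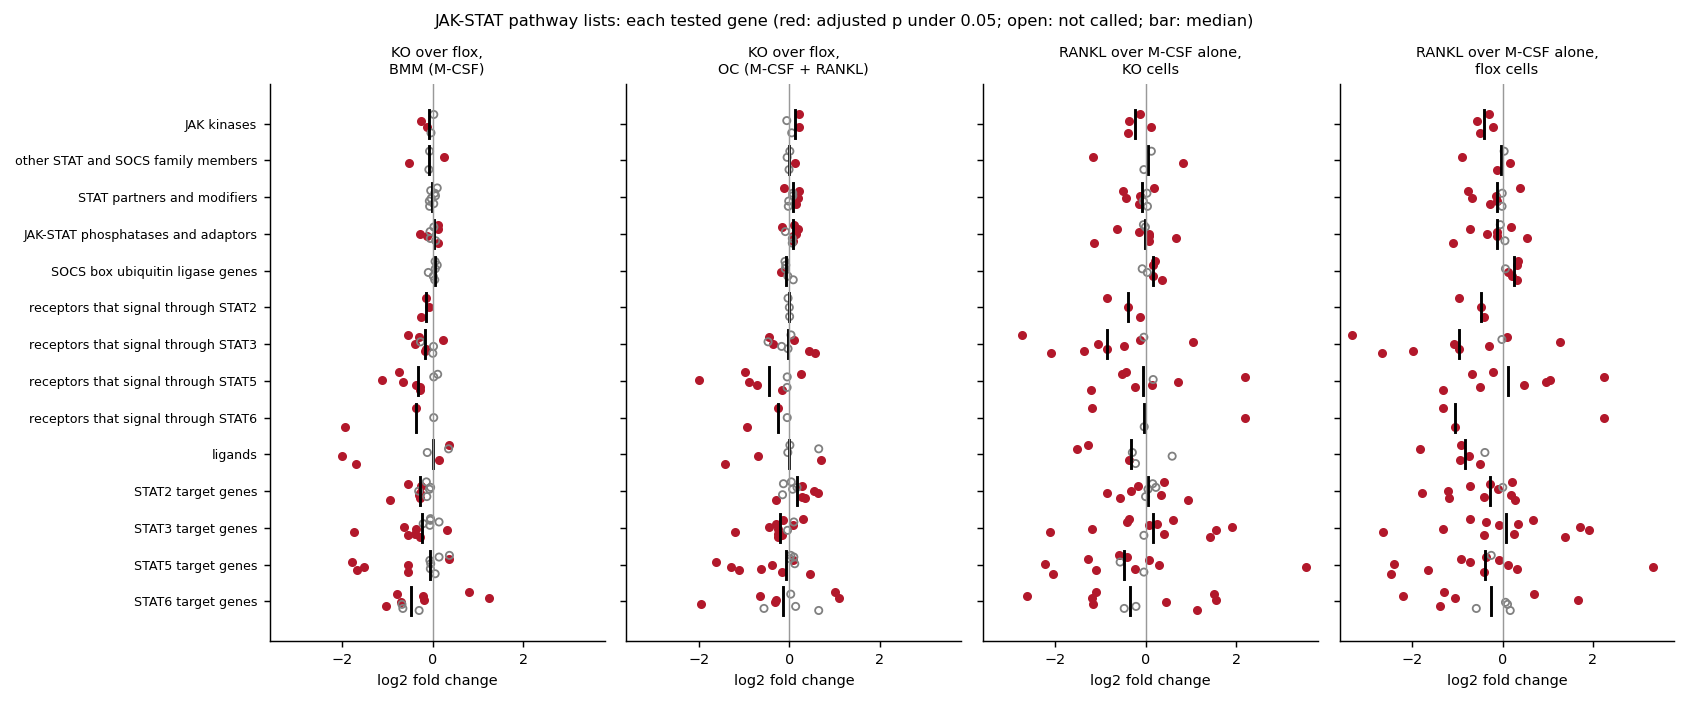
Log2 fold change (horizontal axis) of every tested gene of the 14 pathway lists in the 4 comparisons between groups; red points have an edgeR adjusted p under 0.05, open points do not, and the black bar is the median of the list. Receptors of the STAT3 list lie mostly left of 0 with RANKL (7 of 9 lower in KO cells and 6 of 9 in flox cells), and target lists scatter to both sides; scaling by library size alone turns Tyk2 in KO cells and Socs4 in flox cells to the right of 0 in the RANKL panels.

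Markers of other cells moved with these groups, which are bulk cultures in which fewer cells of a type and less RNA per cell cannot be told apart. All 9 tested of 10 stromal and osteoblast markers were lower in KO cells in both cultures, with a summed level of 58.7 to 68.7 CPM in KO_OC, against 192 to 195 CPM in flox_OC. The sum was 71.7 to 82.2 CPM in KO_BMM, against 226 to 250.2 CPM in flox_BMM. Megakaryocyte markers, mostly Pf4, summed to 15.2 to 16.2 CPM in KO_OC, against 134 to 141 CPM in flox_OC, and to 48 to 52.2 CPM in KO_BMM, against 344 to 408 CPM in flox_BMM. Neutrophil markers, mostly Mmp8, summed to 10.5 to 12.3 CPM in KO_OC, against 34.4 to 36.6 CPM in flox_OC. Their sum was 26.1 to 28.7 CPM in KO_BMM, against 78.8 to 83.3 CPM in flox_BMM. Ly6g was at 0 in all 4 groups, and only 5 of the 10 neutrophil markers were tested. These differences have the direction of the genotype difference of Socs3, Csf1 and Il13ra1, and their part in it was not tested.

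The osteoclast markers moved with the RANKL response as well: 7 of 8 tested rose with RANKL in KO and in flox cells, and 7 of 8 were lower in KO_OC than in flox_OC. Socs3 and Socs1 follow that order of the groups, and the part of the extent of osteoclast formation in it was not tested. All 7 macrophage markers fell with RANKL in both genotypes, beside the falls of Stat2, Stat3 and Stat5b. Endothelial markers, mostly Kdr, summed to 14.5 to 16 CPM in KO_OC, against 24.3 to 25.2 CPM in flox_OC, but of 3 tested 1 was higher and 1 lower, with a median log2 change of 0.27. B cell markers, mostly Ighm, summed to 7.69 to 8.13 CPM in KO_OC, against 11.9 to 13.1 CPM in flox_OC. Dendritic cell markers, mostly Fscn1, summed to 5.47 to 6.56 CPM in KO_OC, against 8.97 to 12.4 CPM in flox_OC, where 1 of 3 tested was lower, none was higher and the median log2 change was 0.11. T and NK cell, mast cell and erythroid markers stayed at or below 0.402 CPM in sum in every library.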

How the data were processed

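The authors deposited raw counts of reads per gene for 12 libraries. The submitters' processing notes name STAR 2.0.4b, GRCm38 and featureCounts. Version 1.4.5-p1 of the counter, per the file headers, summed exons by gene on Ensembl release 76 without regard to strand (setting 0); the recorded command holds no multimapping option. Symbols came from GENCODE names, which matched 40254 of 41388 identifiers; the other 1134 held 0.136% of the counts. Replicates differed by more than counting noise (chi-square over degrees of freedom 1.255 to 5.428). This check assumes pure counting noise within a library, so it cannot exclude the same library sequenced again. These values do not settle if replicates are separate animals or preparations of the same culture.

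From the deposited counts, edgeR 4.0.16 (R 4.3.3) was fitted to all 12 libraries with 4 group means, TMM factors, its default filter on low counts and robust quasi-likelihood F tests. It tested 13030 genes in 5 contrasts, with Benjamini-Hochberg adjustment over all of them, and genes with an adjusted p under 0.05 were called. The biological coefficient of variation was 2.54%. The script was tested on simulated data. Exact intervals of summed counts cover counting error only. Groups and replicate numbers came from the sample titles. Named list genes were up to 4 called members per list and comparison with the largest change and at least 1 CPM; leading markers and a few list genes with too few counts are named besides. The members and lists were chosen with earlier results of these data known. Alternatives were DESeq2 1.42.0, limma-voom (limma 3.58.1), other scalings, no filter, a fit to 2 groups, a replicate block, a 1.5-fold rule, summed Stat5a and Stat5b counts, and leaving out each library. Promoter windows came from RefSeq (GRCm38.p6).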

Additional observations from a re-analysis of the deposited data

Results flagged for a closer look

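The response to RANKL differed between KO and flox cells for 4 members by the test of the difference itself, given as the RANKL effect in KO cells minus that in flox cells on the log2 scale. Socs3 had a difference of -1.15 (edgeR adjusted p = 1.1e-06), with a rise of 2.09 in KO cells and 3.24 in flox cells. Socs1 had a difference of -0.78 (edgeR adjusted p = 0.0419), with a rise of 1.47 in KO cells and 2.26 in flox cells. Stat2 had a difference of 0.26 (edgeR adjusted p = 0.000269), with a change of -0.68 in KO cells and -0.93 in flox cells. Stat6 had a difference of 0.16 (edgeR adjusted p = 0.00119), with a change of -0.10 in KO cells and -0.26 in flox cells. Of all tested genes, 21.9% differed at this threshold.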

How the results depend on the processing

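Of 35 results for the 7 tested members, 31 stayed on their side of the threshold, and kept their direction where called, under every alternative; of 668 alternative values, 650 did. The exceptions were Stat5a with RANKL in both genotypes, Stat6 with RANKL in KO cells and the Socs1 difference. Some changes near 0 that were not called took the other sign, among them that of Socs1 in BMM (-0.14 to 0.13 without 1 library), that of Stat3 in OC (-0.023 to 0.015) and the Stat5b difference (-0.0054 to 0.046). Scaling by library size alone reversed the RANKL change of Stat6 in KO cells (0.038), of Stat5a in flox cells (0.013), of Tyk2 in KO cells (0.014) and of Socs4 in flox cells (0.044), none past the threshold. It moved the median of all genes by 0.136 in KO and 0.165 in flox cells, and the share of called genes that were higher to 63.5% in KO cells, against 50.4% under TMM, and to 62.8% in flox cells, against 49.5%. That share was 59.9% against 48.3% for KO over flox in BMM, and 43.3% against 56.4% for the difference. Demanding a change over 1.5-fold as well left 1 member called in BMM (Socs3), 2 in OC (Socs3 and Socs1) and 2 for the difference (Socs3 and Socs1), by the rule's own construction. For the named list genes, 3995 of 4123 alternative values kept direction and call, and 126 no longer passed. The Socs1 difference without 1 library ranged from -0.90 to -0.63. For the other calls lost the cause was not tested.

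Same-numbered libraries did not deviate together (correlations -0.03 to 0.03 over 12 pairs), and pairs of other numbers gave -0.04 to 0.04. No pairing by number was thus detected, but this check cannot exclude a shared animal or day. With the replicate block the members called stayed at 4 in BMM, 5 in OC, 6 and 7 with RANKL in KO and flox cells, and 4 for the difference, and the genes called were 5150, 5333, 9153, 9728 and 2783. Depth limits Socs2, Cish and, in BMM, Socs1.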
